A study of Mus musculus with 6 samples.

Results

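The interferon response was followed through 9 of its genes in spatial RNA profiles of the ageing mouse brain: Ifi27, Lgals3bp, Ifit1, Ifit3, Isg15, Oasl2, Irf7, Bst2 and Ifitm3. They were taken by name from the gene table of the deposited files, where all 9 were found among 32285 genes. The samples were 6 coronal sections, 1 per brain as taken here, from males of the inbred strain C57BL/6J, with no genetic change or treatment given in the labels. The young group was 6 months old, the middle group 18 months and the old group 21 months, with 2 sections each and 2 males stated per age. Both sections of the young group, middle 1 and old 1 lay on slide 1, and middle 2 and old 2 on slide 2, so that slide and age were partly joined.

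Interferons are secreted proteins that cells release when sensors detect foreign or misplaced nucleic acids. Type I interferons bind the Ifnar1 and Ifnar2 receptor, whose Jak kinases start a signal that ends on a DNA element called the interferon-stimulated response element. Interferon-gamma acts through a receptor of its own on a different element, the gamma-activated site. In brain, microglia, endothelial cells, meninges and choroid plexus are known to carry out this response. Among the 9 genes, Irf7 is a transcription factor that amplifies interferon production, Isg15 a ubiquitin-like protein attached to other proteins, and Oasl2 a relative of the oligoadenylate synthetases. Ifit1 and Ifit3 belong to a family of tetratricopeptide repeat proteins, of which Ifit1 binds viral RNA. Bst2, or tetherin, holds budding viruses at the cell membrane and Ifitm3 blocks viral entry at endosomal membranes. Lgals3bp is a secreted glycoprotein that binds galectins, and Ifi27 is a small hydrophobic interferon-induced protein.

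The promoters were searched for the interferon-stimulated response element, and these sequences are given for that reason. RefSeq windows of 300 bases, from 250 before to 50 after the start site (build GRCm38.p6), were found for 8 of the 9 members, Ifi27 having no entry. The response element was searched as GAAANNGAAA on both strands. It was present in 5 of the 8 member windows and in 3.44% of all 32851 windows. The 5 stretches below run 5′ to 3′ in the direction of the gene, and capitals mark every match on either strand.
Ifit1: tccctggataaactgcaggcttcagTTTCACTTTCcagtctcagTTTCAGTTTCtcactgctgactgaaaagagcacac
Ifit3: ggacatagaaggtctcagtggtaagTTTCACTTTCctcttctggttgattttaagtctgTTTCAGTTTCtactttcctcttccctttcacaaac
Isg15: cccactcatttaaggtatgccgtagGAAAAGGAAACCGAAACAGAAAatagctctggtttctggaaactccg
Bst2: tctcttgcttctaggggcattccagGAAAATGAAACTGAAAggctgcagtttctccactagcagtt
Ifitm3: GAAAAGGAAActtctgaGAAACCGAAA
They lie at chr19:34640760-34640838 on the plus strand for Ifit1, at chr19:34583348-34583441 on the plus strand for Ifit3, at chr4:156200850-156200921 on the minus strand for Isg15, at chr8:71537562-71537627 on the minus strand for Bst2 and at chr7:141010716-141010742 on the minus strand for Ifitm3. Ifit1 and Ifit3 each held 2 separate matches, Isg15 held 3 overlapping ones, and Bst2 held 2 overlapping ones. In Ifitm3 both matches lay just after the start site. The gamma-activated site, searched as TTCNNNGAA, reads the same on both strands. It was found in 2 of the 8 windows, Bst2 and Ifitm3, and in 8.3% of all windows, and in Bst2 it overlapped the first response element. A match describes letters only, and no binding was measured here.

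On the GRCm38 annotation, Ifit3 (ENSMUSG00000074896, chr19:34583531-34588731) and Ifit1 (ENSMUSG00000034459, chr19:34640871-34650009) were neighbours in one cluster on the plus strand. Irf7 (ENSMUSG00000025498, chr7:141262706-141266481) and Ifitm3 (ENSMUSG00000025492, chr7:141009586-141010770) lay on the minus strand of chromosome 7, and Irf7 overlapped Phrf1 on the opposite strand. Isg15 (ENSMUSG00000035692) spanned chr4:156199424-156200818 and Bst2 (ENSMUSG00000046718) chr8:71534255-71537456, both on the minus strand. Lgals3bp (ENSMUSG00000033880) spanned chr11:118392751-118402092 on the minus strand, Oasl2 (ENSMUSG00000029561) chr5:114896936-114912234 and Ifi27 (ENSMUSG00000064215) chr12:103434211-103440239, the last pair on the plus strand. Ifit1, Ifit3 and Ifi27 have near copies (Ifit1bl1, Ifit3b and Ifi27l2a), and how reads were split among them is uncertain.

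The assay, Visium, captures polyadenylated RNA from a 16 µm section on barcoded spots that each cover several cells or parts of cells, and counts molecules by unique molecular identifiers (UMIs). After removal of 2 spots below 500 UMIs, 16741 spots remained, 2573 to 2973 per section, with 60939185 to 77557934 UMIs per section. Median depth per spot was lower with age, at 30093 and 26305.5 UMIs in young, 26099 and 25904.5 in middle and 21766 and 20370 in old sections. Neuron markers summed to 4203 to 4635 counts per 1000000 (CPM) in every section. Spots were clustered without interferon and immune genes, and 15 of 23 clusters were named by their markers as 8 regions, while 2864 spots stayed unnamed. White matter, led by Mbp and Mobp, held 236 to 320 spots per section, choroid plexus and ventricle, led by Ttr, 41 to 67, and meninges, led by Ptgds, Mgp and Igf2, 42 to 59. Only 61 spots of young 1 fell in the hippocampal formation, against 129 to 215 in the other sections.

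All 9 genes stood higher in both old whole sections than in both young ones. Levels are CPM on scaled library sizes and are not compared between genes. Ifi27 measured 48.7 and 48.8 CPM for young, 63.0 and 63.5 for middle and 68.2 and 70.3 for old sections. The 3 ages did not overlap, and most of the step lay between young and middle. Lgals3bp measured 12.5 and 12.9 CPM, then 18.9 and 17.0, then 20.1 and 20.9, again without overlap. With edgeR's quasi-likelihood test and Benjamini-Hochberg adjustment over 17673 genes, Ifi27 rose 1.42-fold from young to old (log2 change 0.51, SE 0.048, adjusted p = 0.0213). Lgals3bp rose 1.62-fold (log2 change 0.70, SE 0.0739, adjusted p = 0.029).

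**Figure D1:**
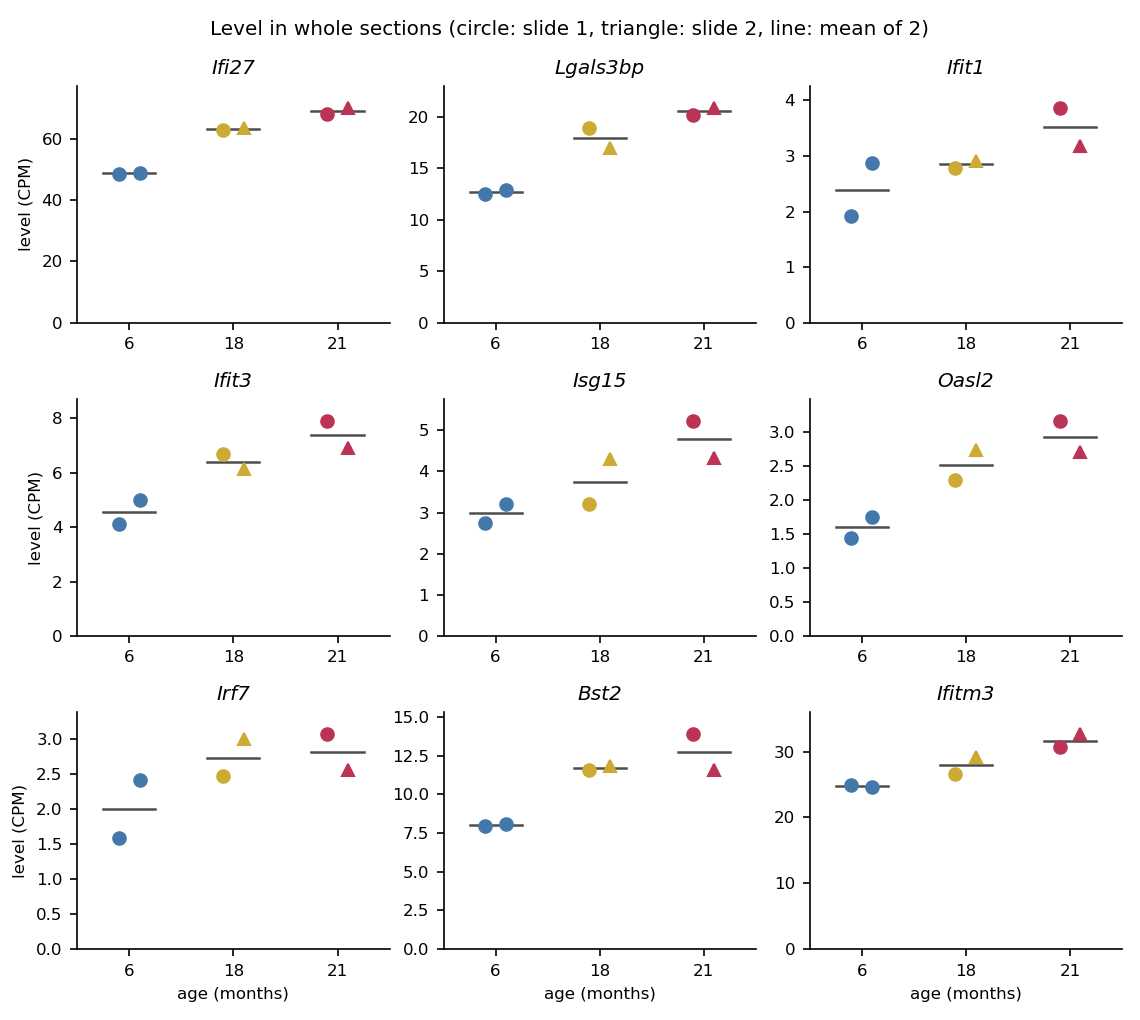
Levels of the 9 interferon response genes in the 6 whole sections, in counts per 1000000 (vertical axis, from 0), by age in months (horizontal axis). Points are sections (circles slide 1, triangles slide 2) and short lines are means of 2; for Ifi27 the young sections sit at 48.7 and 48.8 and the old ones at 68.2 and 70.3.

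Bst2 measured 7.93 and 8.07 CPM for young, 11.6 and 11.8 for middle and 13.9 and 11.6 for old sections. Its middle and old values overlapped, and both lay above the young ones (young against old log2 change 0.67, SE 0.0971, adjusted p = 0.0642 by edgeR). Ifit3 measured 4.11 and 5.01, then 6.68 and 6.13, then 7.92 and 6.90 CPM. Ifitm3 measured 24.9 and 24.6, then 26.6 and 29.2, then 30.6 and 32.7 CPM. For both genes the 3 ages were in order without overlap, although neither difference passed (log2 changes 0.70 and 0.36, adjusted p = 0.12 for each by edgeR).

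Oasl2 had the largest change of the 9, from 1.44 and 1.75 CPM through 2.29 and 2.74 to 3.16 and 2.70, a log2 change of 0.88 with SE 0.171 (adjusted p = 0.128 by edgeR). Isg15 measured 2.75 and 3.22 CPM for young, 3.20 and 4.31 for middle and 5.23 and 4.33 for old sections. Its middle 1 value lay between the young ones. Ifit1 measured 1.91 and 2.87, then 2.79 and 2.91, then 3.87 and 3.18 CPM. Irf7 measured 1.59 and 2.42, then 2.48 and 3.0, then 3.08 and 2.57 CPM. In Ifit1 and Irf7 the spread between the young sections was wider than the gap to the old ones, and log2 changes were 0.56 (SE 0.199) and 0.49 (SE 0.218).

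The members were chosen with earlier results of these data known, so their counts against all genes, here and by region, are a description. In count, 2 of 9 genes were called from young to old at an adjusted p under 0.05, where 0.164% of all genes were called in either direction. At an unadjusted p under 0.05 there were 8 of 9, against 12.7% of all genes. Both old values lay above both young ones in 9 of 9, against 21.5% of all genes. The members' median log2 change was 0.67, against -0.0023 over all genes tested. From young to middle, edgeR called 0 of 9, against 0.0679% of all genes, and 6 of 9 had an unadjusted p under 0.05, against 7.82%. DESeq2, another count test, called 3 members, and its share of all genes for that step is not given here. From young to old DESeq2 called 194 genes in all, against 29 by edgeR. The middle values lay above the young ones without overlap in 7 of 9 genes, all but Ifit1 and Isg15, against 19.1% of all genes. From middle to old the median was 0.19, edgeR and DESeq2 called 0 of 9 (edgeR called 0.0% of all genes), and 3 of 9 had an unadjusted p under 0.05, against 2.04% of all genes.

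Fitted as a straight line on age, 5 of 9 genes rose, where 0.724% of all genes were called. The slope per 12 months on the log2 scale was 0.40 for Ifi27 (adjusted p = 0.00585), 0.54 for Lgals3bp (adjusted p = 0.00603), 0.54 for Bst2 (adjusted p = 0.0152), 0.54 for Ifit3 (adjusted p = 0.0411) and 0.69 for Oasl2 (adjusted p = 0.0479), all by edgeR. For Ifitm3 the slope was 0.25 (adjusted p = 0.0827), and for Isg15, Irf7 and Ifit1 it lay between 0.40 and 0.49 without passing. The line shares its sections with the pairwise comparisons and is no separate evidence. In a fit that had slide as a block the old against young comparison called 0 of 9 by edgeR, at log2 changes of 0.49 for Ifi27 (adjusted p = 0.0832) and 0.72 for Lgals3bp (adjusted p = 0.106), and the line called Ifi27, Lgals3bp and Bst2. Leaving out single sections ended the old against young call of Ifi27 without middle 1, middle 2 or old 2 (adjusted p from 0.0758 to 0.160), and that of Lgals3bp without any section but young 2 (adjusted p from 0.0551 to 0.209), at log2 changes of 0.49 to 0.72. The line's calls of Ifit3 and Oasl2 held without young 2 and in none of the other five, and that of Bst2 was lost without middle 2.

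Microglial markers moved with these genes. Their 12 transcripts summed to 509 and 528 CPM for young, 619 and 649 for middle and 660 and 757 for old sections, and 2 of the 12 were called, Tyrobp and Trem2. Endothelial markers summed to 288 to 319 CPM and neutrophil markers to 2.12 to 5.76 CPM, with no call in either list. In sums over spots, more cells of a type and more RNA per cell cannot be told apart, and the part of microglia in the members' rise was not tested.

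By the region of their highest mean, the 9 genes fell into a pair of patterns across the brain. Ifi27, Lgals3bp, Bst2 and Ifitm3 had their highest mean in choroid plexus and ventricle, the tissue that makes cerebrospinal fluid. Ifit1, Ifit3, Isg15, Oasl2 and Irf7 had theirs in the meninges, the membranes that cover the brain. Ifi27 stood at 467.7 ± 113.0 CPM (SD, n = 6) in choroid plexus, 134 ± 17.7 in white matter, 110 ± 20.3 in meninges and 30.7 ± 6.72 in thalamus, the lowest. The choroid plexus values did not overlap those of white matter, while white matter and meninges overlapped. Lgals3bp stood at 157 ± 43.3 CPM in choroid plexus, 49.7 ± 6.24 in meninges, 31.1 ± 13.5 in white matter and 9.06 ± 1.67 in isocortex, the lowest. Bst2 stood at 131 ± 39.0, 44.7 ± 14.7, 23.9 ± 8.42 and 5.43 ± 1.07 CPM in the same 4 regions. For both genes choroid plexus was clear of the meninges, and the values of meninges and white matter overlapped.

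Ifitm3 was high in both border tissues, at 227 ± 50.7 CPM (SD, n = 6) in choroid plexus and 186 ± 47.5 in meninges, which overlapped. White matter followed at 69.8 ± 11.9 CPM, clear of both neighbours in the order, and isocortex was lowest at 16.3 ± 1.3. Ifit3 stood at 27.5 ± 8.92 CPM in meninges, 13.4 ± 8.91 in choroid plexus, 12.1 ± 4.50 in white matter and 4.78 ± 0.672 in isocortex. Isg15 stood at 22.5 ± 13.1, 9.41 ± 4.71, 8.81 ± 1.59 and 2.82 ± 0.494 CPM in those regions. Ifit1 stood at 23.2 ± 19.9 CPM in meninges, where 1 section, old 2, reached 63.1 and the other five lay between 9.64 and 18.9. Oasl2 and Irf7 stood at 13.4 ± 7.11 and 7.35 ± 4.08 CPM in meninges. In choroid plexus Ifit1, Oasl2 and Irf7 stood at 11.3 ± 9.45, 8.91 ± 6.03 and 6.72 ± 4.54 CPM. Meninges stood above choroid plexus in 4 of 6 sections for these 3 genes and in 5 of 6 for Ifit3 and Isg15. Choroid plexus stood above meninges in 4 of 6 sections for Ifitm3. For these 5 genes the meninges and choroid plexus values overlapped, white matter came next, and the grey matter regions overlapped one another.

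**Figure D2:**
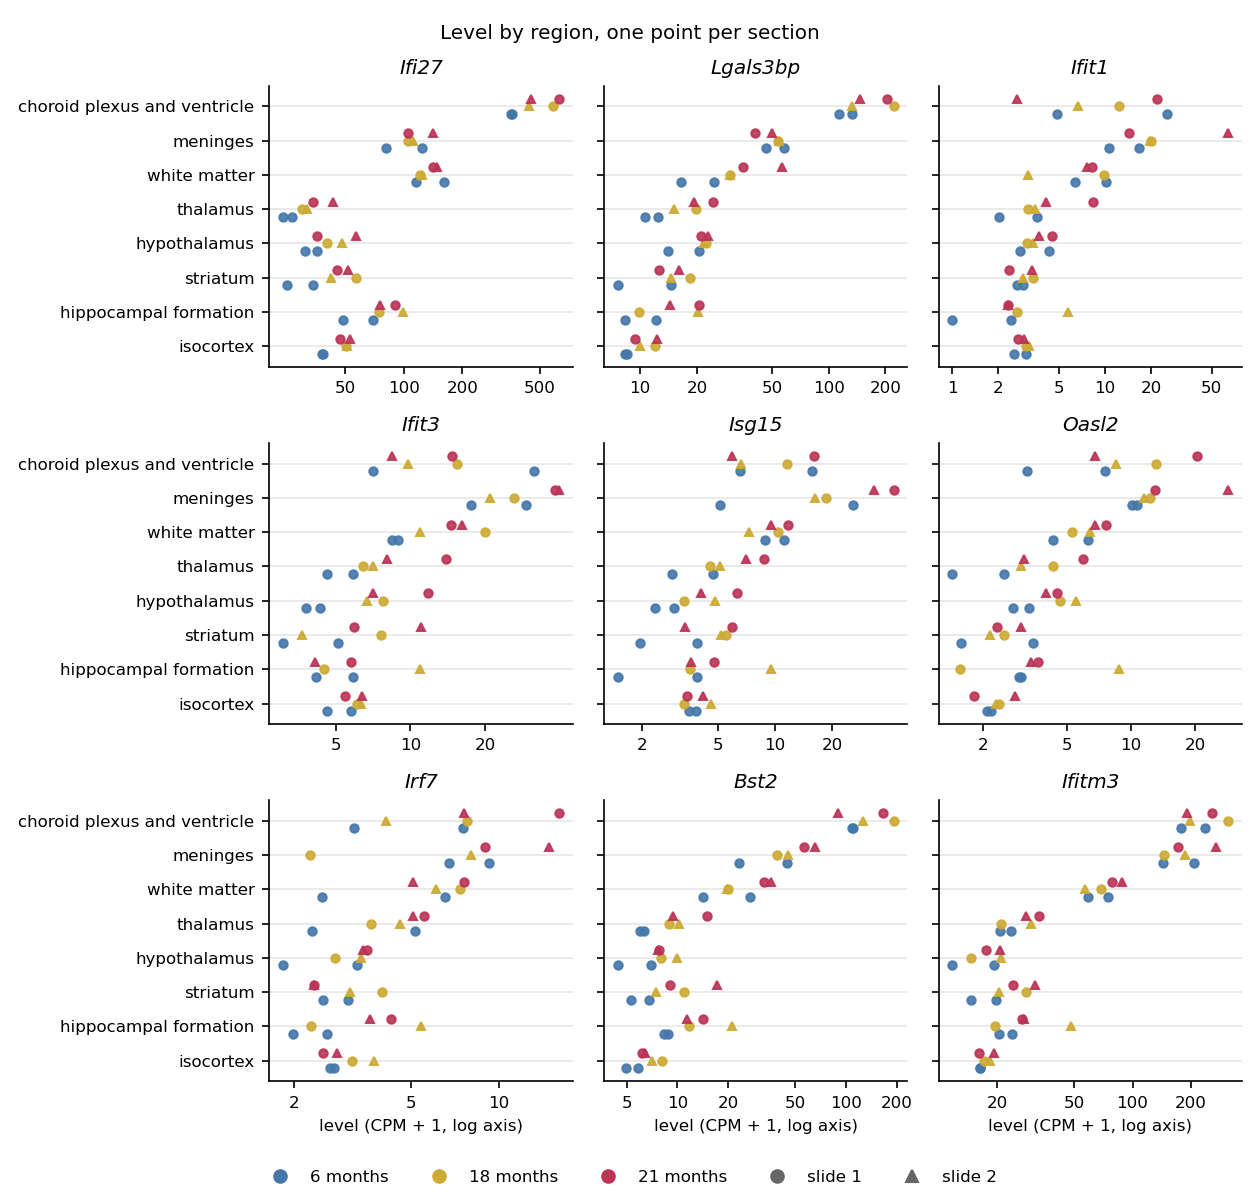
Levels of the 9 genes in 8 marker-named regions, in counts per 1000000 on a logarithmic axis (horizontal), after adding 1, one panel per gene; each point is 1 section, coloured by age, with circles for slide 1 and triangles for slide 2. Ifi27 in choroid plexus and ventricle lies between 353 and 624 CPM, and in thalamus between 23.0 and 42.2 CPM.

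The unnamed spots, with 15.5% of all UMIs, are not followed as a region. On unscaled library sizes they held 24.6% (Lgals3bp) to 35.6% (Ifitm3) of each member's whole-section gain from young to old. They made up 15.8% and 17.0% of young and 18.9% and 18.0% of old spots. Isocortex, the largest region, showed 1 member called. Ifi27 there measured 37.4 and 37.0 CPM for young, 49.8 and 49.9 for middle and 46.0 and 51.9 for old sections. The step lay between young and middle, and middle and old overlapped. It rose 1.31-fold from young to old (log2 change 0.39, SE 0.0679, adjusted p = 0.0301 by edgeR), the 1 called of 9 where 0.26% of all genes were called, and slide as a block ended the call (adjusted p = 0.145), as did leaving out old 2 (adjusted p = 0.258) or young 1 (adjusted p = 0.0507). From young to middle the log2 change of Ifi27 was 0.42 (adjusted p = 0.0194 by edgeR), the 1 called of 9 where 0.152% of all genes were called, with 4 of 9 at an unadjusted p under 0.05 against 8.68%. No other member passed from young to old in isocortex. Isg15 measured 2.52 and 2.86 CPM in young and 2.46 and 3.17 in old sections, and Irf7 1.64 and 1.74 against 1.51 and 1.80. Both pairs of values overlapped, and the members' median log2 change was 0.19, with 2 of 9 at an unadjusted p under 0.05 against 10.8% of all genes. That median was -0.016 without old 2, 0.114 without young 1, 0.297 without old 1 and 0.021 with slide as a block. From middle to old all 9 log2 changes in isocortex were below 0, with a median of -0.07; edgeR called 0 of 9 (0.0% of all genes) and 2 of 9 had an unadjusted p under 0.05, against 3.04% of all genes.

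White matter, the myelinated tracts, also had 1 member called, and it was Lgals3bp. It measured 15.5 and 23.7 CPM for young, 29.1 and 28.9 for middle and 33.9 and 55.6 for old sections. The 3 ages were in order without overlap, with old 2 far above the rest. It rose 2.30-fold from young to old (log2 change 1.2, SE 0.240, adjusted p = 0.0185 by edgeR), the 1 called of 9 where 2.13% of all genes were called. Without old 2 the log2 change was 0.79 (adjusted p = 0.152), and the call was also lost without middle 1 (adjusted p = 0.0876), without middle 2 (adjusted p = 0.0864) and in a fit with slide as a block (log2 change 0.98, adjusted p = 0.0504).

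Bst2 in white matter measured 13.1 and 26.1 CPM for young, 18.9 and 18.7 for middle and 31.4 and 35.1 for old sections. The old values lay above all others, and the young ones were wide apart (log2 change 0.76, SE 0.221, adjusted p = 0.0902 by edgeR). Ifit3 measured 7.45 and 7.91, then 18.9 and 9.93, then 13.5 and 15.1 CPM, so that middle 1 was its highest section. Ifi27, which rose in the whole section, measured 114 and 159 CPM in the young and 141 and 147 in the old white matter. The old values lay between the young ones (log2 change 0.07, SE 0.121, adjusted p = 0.878 by edgeR). Isg15 and Ifit1 overlapped likewise, at log2 changes of 0.08 and -0.07. Both old values stood above both young ones in 5 of 9 members (Lgals3bp, Ifit3, Oasl2, Bst2 and Ifitm3), against 22.2% of all genes, and 4 of 9 had an unadjusted p under 0.05, against 12.7%. Neither from young to middle (2 of 9 at an unadjusted p under 0.05) nor from middle to old (3 of 9) did edgeR or DESeq2 call a member in white matter, where edgeR called 2.96% and 0.277% of all genes and 15.1% and 8.61% had such a p. Along age edgeR called 0 of 9 members there (1.54% of all genes), with 2 of 9 at an unadjusted p under 0.05 (12.9% of all genes). DESeq2 called 1 along age, and its share of all genes there is not given here.

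Whether the old against young change itself differed in white matter from that in the remaining spots was tested directly. For Ifi27 the white matter change was smaller by a log2 difference of -0.47 (SE 0.112, adjusted p = 0.00471 by edgeR), the 1 member called of 9 where 1.6% of all genes were called, with 3 of 9 at an unadjusted p under 0.05 against 9.75%. That call rested on single sections: without young 2 the difference was -0.19 (adjusted p = 0.790), and it was lost too without old 1 (adjusted p = 0.124), without old 2 (adjusted p = 0.0688) and with DESeq2 (adjusted p = 0.440). For Lgals3bp the white matter change was larger by 0.56, which did not pass (SE 0.185, adjusted p = 0.103 by edgeR). The same test for choroid plexus and ventricle called 0 of 9 members by edgeR, where 0.154% of all genes were called, with 2 of 9 at an unadjusted p under 0.05 against 6.43% of all genes. Microglial markers in white matter summed to 1180 and 1352 CPM for young, 1687 and 1949 for middle and 2456 and 2917 for old sections, with 9 of 12 called. Astrocyte markers summed to 3107 and 3176 CPM in young and 3685 and 4049 in old white matter, with 2 of 7 called. Oligodendrocyte markers summed to 49536 and 51817 CPM in young and 44932 and 42859 in old white matter, with log2 changes below 0 in 7 of 7, 4 of 7 at an unadjusted p under 0.05 and 0 called. T cell markers summed to 6.55 to 20.0 CPM there and blood markers to 8.17 to 17.6 in 5 sections and 73.4 in old 2. Over all whole sections Trbc2 had 9680 UMIs and Cd4 1164 in the T cell list, against 20 to 53 each for Cd3d, Cd3e, Cd3g, Cd8a and Cd8b1. The part of these cell types in the change of Lgals3bp was not tested.

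In the thalamus no member was called, although the log2 change from young to old was above 0 in 9 of 9. Isg15 measured 1.87 and 3.73 CPM for young, 3.53 and 4.15 for middle and 7.73 and 6.05 in the old thalamus. Ifit3 measured 3.60 and 4.88, then 5.43 and 6.05, then 13 and 7.04 CPM. Bst2 measured 5.04 and 5.32, then 7.95 and 9.19, then 14.0 and 8.45 CPM. Both old values stood above both young ones in each, and old 1 was highest. Log2 changes from young to old were 1.24 for Isg15, 1.23 for Ifit3, 1.13 for Bst2, 1.01 for Lgals3bp, 1.48 for Ifit1 and 1.74 for Oasl2, with adjusted p-values between 0.189 and 0.94 by edgeR. Neither edgeR nor DESeq2 called any of the 9, where edgeR called 0.0435% of all genes. With no low-count filter edgeR called 7 of 9 there, where it called 133 of 20167 genes in place of 6 of 13786. At an unadjusted p under 0.05 there were 8 of 9, against 4.8% of all genes, and old lay above young without overlap in 8 of 9, all but Irf7, against 18.1%. The members' median was 1.13, against 0.0028 over all genes. Without old 1 the median was 0.70 and 4 of 9 had an unadjusted p under 0.05, so the size rested in part on 1 section. The counts behind these values were small: Oasl2 rested on 3 and 17 UMIs in the young and 45 and 15 in the old thalamus.

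**Figure D3:**
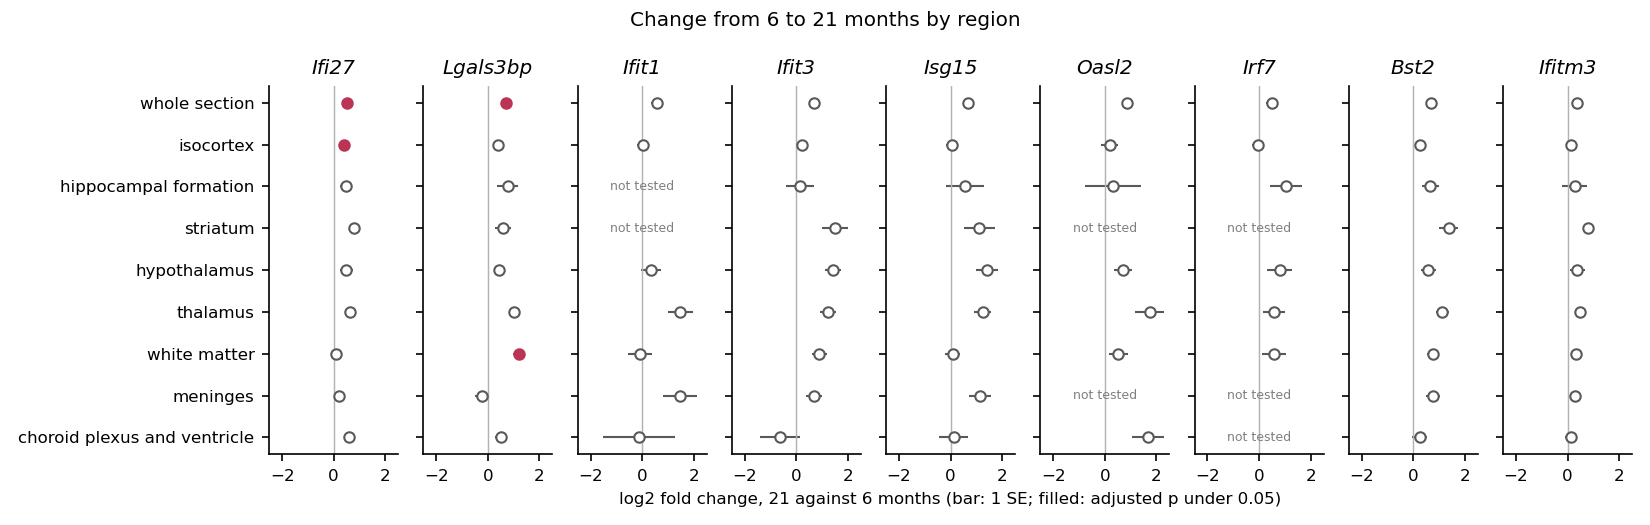
Log2 change from young to old of each of the 9 genes (columns) in the whole section and in 8 regions (lines), on horizontal axes in log2 units; bars are 1 SE and filled points have an adjusted p under 0.05 by edgeR. The filled points are Ifi27 (0.51) and Lgals3bp (0.70) in the whole section, Ifi27 in isocortex (0.39) and Lgals3bp in white matter (1.2).

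In the hypothalamus Ifit3 measured 3.32 and 2.80 CPM in young and 10.8 and 6.06 in old sections, and Isg15 1.35 and 1.93 against 5.34 and 3.09. Neither pair overlapped, at log2 changes of 1.43 and 1.40, where the 9 members ranged from 0.35 to 1.43. The share of all genes in that order was computed only for whole sections (21.5%), white matter (22.2%) and thalamus (18.1%). In the hypothalamus edgeR called 0 of 9 members (0.0423% of all genes) with 3 of 9 at an unadjusted p under 0.05 (7.12% of all genes). The hypothalamic median of 0.59 was 0.18 without young 1. In the striatum 6 members were abundant enough to test, without Ifit1, Oasl2 and Irf7, and edgeR called 0 of 6 (0.138% of all genes) with 4 of 6 at an unadjusted p under 0.05 (9.29% of all genes). Bst2 there measured 4.33 and 5.74 CPM in young and 8.03 and 16.1 in old sections, without overlap. Without young 2 edgeR called 4 of 6 striatal members, but also 372 genes in all in place of 17. In the hippocampal formation 8 members were tested, without Ifit1, and 0 called by edgeR (0.00782% of all genes), with 1 at an unadjusted p under 0.05 (3.87% of all genes).

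In choroid plexus and ventricle Ifi27 measured 359 and 353 CPM for young, 583 and 436 for middle and 624 and 450 for old sections. The young values were the lowest, and the sections of slide 2 lay between the young and the other two (log2 change 0.59, adjusted p = 0.459 by edgeR). Bst2 measured 109 and 107 CPM, then 191 and 126, then 166 and 89.0, with the old values on either side of the young. Of the 8 members tested there, without Irf7, edgeR called 0 (0.0608% of all genes), with 3 of 8 at an unadjusted p under 0.05 (6.78% of all genes). In the meninges Isg15 measured 24.7 and 4.13 CPM in young and 41.1 and 32.3 in old sections. The old values were higher without overlap, and the young ones were far apart, 4.13 CPM resting on 3 UMIs (log2 change 1.15, adjusted p = 0.50 by edgeR). The share of all genes in that order was not computed for the meninges. Of the 7 members tested in the meninges, without Oasl2 and Irf7, edgeR called 0 (0.452% of all genes), with 3 of 7 at an unadjusted p under 0.05 (6.64% of all genes), and the median of 0.69 was -0.01 without old 2. DESeq2 likewise called none in hypothalamus, striatum, hippocampal formation, choroid plexus or meninges.

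To set aside depth, each spot was thinned to 10000 UMIs and the share of spots with at least 1 UMI was taken. Shallower spots were left out, 192 and 235 in young, 148 and 130 in middle and 350 and 343 in old sections. They were not counted by region, and white matter held 9.98% of all spots but 4.76% of all UMIs. Ifi27 was detected in 33.7% and 34.4% of young, 40.5% and 42.8% of middle and 41.1% and 45.4% of old spots. The young shares were lowest, and middle and old overlapped. For young 1 the exact binomial 95% interval was 31.8% to 35.6% and for old 2 it was 43.4% to 47.4%, covering counting error only. Unthinned, the shares were 62.1% and 62.5%, 68.5% and 70.2%, and 63.4% and 68.2%. Bst2 was detected in 6.30% and 7.40% of young, 8.50% and 10.1% of middle and 10.3% and 10.6% of old thinned spots. The old shares were highest, whereas unthinned the shares were 14.0% and 16.4%, 19.4% and 21.1%, and 18.6% and 18.0%. Ifit1 was detected in 1.97% and 2.65% of young, 3.05% and 3.30% of middle and 3.47% and 2.75% of old thinned spots.

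A small number of spots held many UMIs of the 5 rarer members at once. Spots with 10 or more UMIs of Ifit1, Ifit3, Isg15, Oasl2 and Irf7 together, a limit chosen after the values were seen, numbered 1 and 2 for young, 5 and 3 for middle and 19 and 3 for old sections, 33 of 16741 in all. Old 1 stood apart, and old 2 was level with middle 2. At 5 or more UMIs the numbers were 7 and 6, 15 and 14, and 40 and 18, and at 20 or more they were 0 and 1, 1 and 0, and 5 and 0. Just under the limit, at 8 or 9 UMIs, lay 0 to 6 spots per section. Of the 33 spots, 8 were in thalamus, 7 of them in old 1, and 6 each in meninges and white matter. Choroid plexus held 4, hippocampal formation and hypothalamus 2 each and striatum 1. The remaining 4 were all in old 1 and in 1 unnamed cluster of 230 spots. That cluster, led by Necab2, Ttr and Gng8, had 3 thalamus and 3 hypothalamus markers among its 50 leading genes.

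The richest was a meningeal spot of old 1 with 49 such UMIs, 22 of Isg15 and 14 of Ifit3, among 19137 UMIs in all. Next came a white matter spot of middle 1 with 48 and a choroid plexus spot of young 2 with 43, so such spots were present at every age. The richest thalamic spots were all in old 1 and held 25, 25 and 24. These spots carried 20.5% of all UMIs of the 5 genes in old 1, against 1.26% to 7.95% in the other sections. On unscaled library sizes the 5 genes summed to 11.4 and 15.3 CPM for young, 17.1 and 19.4 for middle and 23.8 and 20.0 for old sections. Without these spots the sums were 11.3 and 14.5, 15.8 and 18.8, and 19.0 and 19.3 CPM, and the old sections still lay above the young.

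Without the same spots the log2 ratio of old over young mean CPM moved from 0.61 to 0.43 for Ifit1, from 0.54 to 0.37 for Irf7, from 0.73 to 0.56 for Isg15 and from 0.93 to 0.77 for Oasl2. It was 0.56 and 0.55 for Ifi27 and 0.75 and 0.72 for Lgals3bp. For all 9 genes the old sections lay above the young without overlap in the remaining spots. The share of all genes in that order was not computed for these spots. In whole sections it was 21.5%. In the thalamus the ratio of Ifit1 moved from 1.60 to 0.84, and its old and young values then overlapped. There the ratio moved from 1.3 to 0.94 for Ifit3 and from 1.35 to 1.11 for Isg15.

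Other genes in these spots were set against the remaining spots of the same cluster and section, with 95% intervals that cover counting error only. Bst2 had 169 UMIs where 36.7 would be had at the level of the other spots, Ifitm3 293 where 80.6 would be had, Lgals3bp 116 against 49.2 and Ifi27 191 against 132. Together these 4 members stood 2.57 times as high (2.40 to 2.76). Over sections their ratio ran from 0.91 in young 2 (0.67 to 1.21) to 5.29 in old 2. The remaining type I interferon targets stood 4.44 times as high (4.21 to 4.69), and 3.52 to 7.42 times over sections. Interferon-gamma targets stood 4.56 times as high (4.24 to 4.91), ranging from 1.88 to 15.4 times over sections. Cxcl10, a chemokine, had 220 UMIs against 2.13, and Usp18, which dampens the receptor, 48 against 2.97. The receptor gene Ifnar1 had 15 UMIs against 15.0. Mural markers, of the cells that wrap vessels, stood 1.68 times as high (1.52 to 1.86, from 380 UMIs), and 0.94 to 4.62 times over sections. Microglial markers stood 1.27 times, endothelial 1.31 times, T cell 2.29 times (1.47 to 3.41, from 24 UMIs), oligodendrocyte 0.87 times and neuron markers 0.77 times as high. Sections differed in these too, from 1.03 to 2.32 times for microglial, 0.65 to 1.77 for endothelial, 0.25 to 2.84 for oligodendrocyte and 0.14 to 1.36 for neuron markers. The part of these cell types in the members' levels was not tested. The genes named from these spots were chosen after their values were seen.

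**Figure D4:**
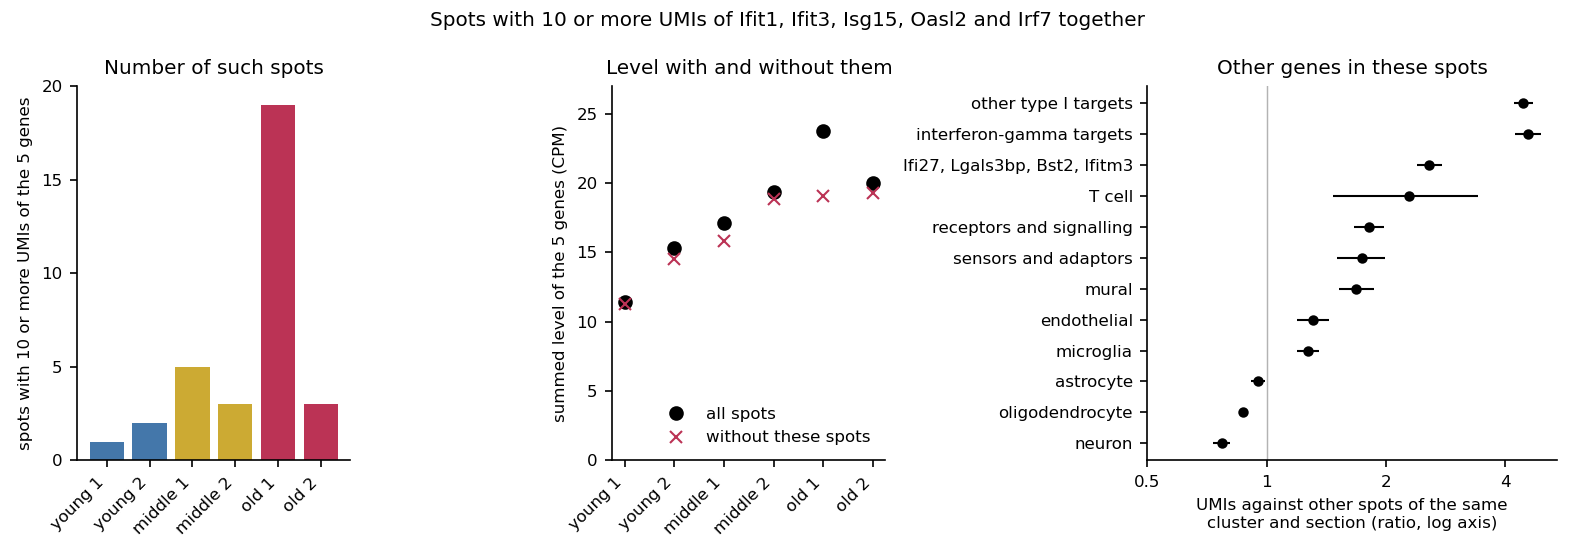
Spots with 10 or more UMIs of Ifit1, Ifit3, Isg15, Oasl2 and Irf7 together: their number per section (bars), the summed level of the 5 genes with and without them (CPM), and the UMIs of other gene lists relative to other spots of the same cluster and section (ratio, logarithmic axis, bars are 95% counting intervals). Old 1 holds 19 of the 33 spots.

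The rest of the pathway was followed with 117 further genes. Of the 13 interferon genes themselves, 9 had no UMI in any section, and Ifng had 15 UMIs, Ifna2 and Ifnk 2 each and Ifnb1 1 over all 6 sections, so that none could be tested. At this depth their absence is not shown. Among whole sections from young to old, edgeR called 0 of 11 receptor and signalling genes (3 at an unadjusted p under 0.05, median log2 change 0.05), 0 of 15 sensors and adaptors (4 at an unadjusted p under 0.05, median 0.10), 0 of 6 negative regulators (1 at an unadjusted p under 0.05) and 0 of 24 interferon-gamma targets (5 at an unadjusted p under 0.05, median 0.18). Of the 41 other type I targets tested, 34 had a log2 change above 0 and 15 an unadjusted p under 0.05, with a median of 0.28, and edgeR called 0. Over all genes the median was -0.0023, 49.3% had a log2 change above 0, 12.7% an unadjusted p under 0.05 and 0.164% were called. Along age, where 0.724% of all genes were called, edgeR called 1 of 41 other type I and 2 of 24 interferon-gamma targets: Ifi27l2a, from 4.96 and 6.73 CPM in the young to 9.76 and 10.6 for old sections, Tap1, from 1.85 and 2.39 to 3.49 and 3.93, and Psmb8, from 5.01 and 6.00 to 7.68 and 8.66. Tap1 and Psmb8 serve antigen processing. None of the 3 overlapped between young and old, and 21.5% of all genes had old above young in this way. The line that called the 3 used the same values, so this is no separate evidence.

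In white matter 4 further pathway genes rose from young to old by edgeR. Irf8, a transcription factor of the microglial lineage, went from 7.75 and 4.98 CPM through 11.2 and 13.8 to 20.1 and 18.9 (log2 change 1.61, adjusted p = 0.000383). The ages did not overlap. Stat3, a signal transducer used by many cytokines, went from 46.2 and 44.5 to 68.5 and 67.9 CPM (log2 change 0.59, adjusted p = 0.00798), with the middle sections at 49.3 and 45.2. The call of Stat3 was lost with DESeq2 (adjusted p = 0.207), without old 1 (adjusted p = 0.0632) and without old 2 (adjusted p = 0.0975). Slfn2 went from 1.49 and 1.47 to 5.03 and 6.57 CPM (log2 change 1.96, adjusted p = 0.0301), a call lost on leaving out any 1 section. Ccl5, a chemokine made by T cells and other leukocytes, went from 0.894 and 2.34 to 4.71 and 13.7 CPM (log2 change 2.51, adjusted p = 0.0355), and without old 2 its log2 change was 1.52 (adjusted p = 0.532). The call of Ccl5 was lost in 10 of 16 alternatives, among them DESeq2, slide as a block and leaving out young 1, middle 1 or middle 2, and that of Irf8 in 0 of 16. By list, edgeR called 1 of 11 receptor and signalling genes tested (1 at an unadjusted p under 0.05), 2 of 28 other type I targets (7), 1 of 16 interferon-gamma targets (7), 0 of 13 sensors (1) and 0 of 5 negative regulators (1), where 2.13% of all genes were called and 12.7% had such a p.

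The genes outside these lists whose levels over 48 points (8 regions in 6 sections) were most like the members' mean were H2-K1 (Pearson's r 0.957), Tspo (0.936), Rnase4 (0.921), Ctsh (0.921) and Copz2 (0.92), of 11600 genes compared. H2-K1 encodes a class I antigen-presenting protein. Between members, r over the same points ran from 0.55 for Ifi27 and Ifit3 to 0.96 for Bst2 and Ifitm3, and was 0.88 for Ifit1, Ifit3 and Isg15 in any pairing except 0.87 for Ifit1 and Ifit3. The points share their sections, their depth and the differences between regions, so these values are a description.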

How the data were processed

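The 6 libraries were deposited as unfiltered-by-gene matrices of spots over tissue, with whole-number UMI counts per gene and spot made by the authors with Space Ranger, version 1.3.1 per the file headers and 3.1 per the submitters' processing notes, on mm10. The deposited barcode and feature tables carry names only, and any other filter is not given in the sources used here. The members and lists were chosen with earlier results of these data known, as were the region naming rule and the limit for rich spots.

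Spots with at least 500 UMIs were clustered with scanpy 1.11.5 (2000 variable genes without interferon and immune genes, 30 components, 20 neighbours, Leiden resolution 0.8 with igraph 0.11.9, Python 3.11.15). A cluster took a region's name when at least 3 of its 50 leading genes and 1 of its first 10 were markers of that region, these 50 held at least 2 times as many of its markers as of any other region's, and the first 10 held at most 1 marker of another region and fewer of those than of its own. Counts were summed per section, or per region and section, and tested across all genes with edgeR 4.0.16 in R 4.3.3 (robust quasi-likelihood, TMM scaling, its default low-count filter, age group as the only term, all 6 sections, 3 residual degrees of freedom, two-sided). Adjusted p-values are Benjamini-Hochberg over all genes tested, and a gene was called under 0.05. The line on age used months as a number. Interaction fits had section as a block. DESeq2 1.42.0 and the other alternatives are given in the closing section. CPM use TMM-scaled totals unless stated. The labels give 2 males per age, and a section was taken as 1 animal. Replicates differed beyond counting noise (chi-square per degree of freedom 24.0 to 45.6). Sections shared 2082 to 2825 spot barcodes, which name positions on the slide. On simulated counts, 200 genes with a mean of at least 50 UMIs were changed 2-fold. The whole-section test recovered 90.5% of them among 17533 genes, and 15.0% of its calls were other genes, above the limit of 0.05 used. In white matter it recovered 93% among 12479 genes, and 3.12% of calls were others. In whole sections every member changed less than 2-fold from young to old, so the share recovered does not carry over to them.

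Named genes were the 9 members, the 5 called pathway genes of largest change per direction with a mean of at least 1 CPM, from young to old over whole sections or over white matter, and the 5 genes of most like pattern among those with at least 5 CPM, on log2(CPM + 1). Any other gene was named after its values were seen. Positions come from GENCODE M21, which matched 32158 of 32285 gene IDs.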

Additional observations from a re-analysis of the deposited data

Results flagged for a closer look

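The old against young change of Ifi27 differed between white matter and all other spots by -0.47 on the log2 scale, a test of the difference itself by edgeR's quasi-likelihood test with Benjamini-Hochberg adjustment (adjusted p = 0.00471). In white matter the old sections, at 141 and 147 CPM, lay between the young ones, at 114 and 159, while in the whole section both old values were above both young ones. Without young 2 the difference was -0.19 (adjusted p = 0.790).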

How the results depend on the processing

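Counts here are members called by edgeR unless stated. From young to old in whole sections the count of 2 became 6 with DESeq2, 6 with no low-count filter, 1 with clusters given equal spot numbers in each section, 0 with only the groups compared, 0 with slide as a block and 0 to 2 on leaving out a section. From young to middle the count of 0 became 3 with DESeq2 and 3 with no filter. The all-gene calls of these settings for that step are not given here. For the line on age, 5 became 3 with slide as a block and 2 to 6 on leaving out a section. Over all genes, whole sections gave 29 calls from young to old, 194 with DESeq2, 113 with no filter, 7 with only the groups compared, 7 with slide as a block and 6 to 75 on leaving out a section. The line gave 128, and 346, 220 and 23 with DESeq2, no filter and slide, and 24 to 318 on leaving out a section.

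In white matter the young to old count of 1 became 3 with no filter, 0 with only the groups compared, 0 with slide as a block, 0 when white matter was taken as the tenth of spots richest in oligodendrocyte markers, and 0 to 2 on leaving out a section. All-gene calls there were 270, and 119 with DESeq2, 481 with no filter, 140 with slide, 412 with the tenth of spots and 96 to 372 on leaving out a section. With no filter the count of 0 became 1 from young to middle, 2 from middle to old and 2 for the line, and leaving out a section gave 0 to 1, 0 to 2 and 0 to 2. The line gave 1 with DESeq2 and 1 with sums thinned to the smallest total. The other regions are counted together next, with 7 of their no-filter calls in the thalamus. In the other regions the count of 1 became 14 with no filter and 0 with slide. With no filter the all-gene calls rose too, from 41 to 307 in isocortex, 17 to 103 in striatum and 6 to 100 in hypothalamus. They rose from 6 to 133 in thalamus, 1 to 46 in hippocampal formation, 7 to 82 in choroid plexus and 45 to 90 in meninges. With slide the isocortex calls went from 41 to 26. The white matter interaction count of 1 became 0 with DESeq2, 0 at Leiden resolution 1.2 and 0 to 1 on leaving out a section, and that of choroid plexus ranged from 0 to 1.

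The sections were not paired by replicate number. Over 17673 genes, deviations from group means correlated at -0.00084 for young 1 and middle 1 and 0.184 for young 1 and old 1. For middle 1 and old 1 the correlation was 0.336. Middle and old sections of the same number also share a slide, so a pairing there cannot be told apart from slide. With the replicate block the line called 3 members in place of 5 and 76 genes in place of 128, white matter 2 in place of 1 from young to old and 1 in place of 0 for the line, and the other regions 2 in place of 1.

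Some uncalled white matter changes from young to old turned direction. On leaving out a section Ifi27 ranged from -0.15 (without young 1) to 0.32, Irf7 from -0.081 (without young 1) to 1.79, Isg15 from -0.10 (without young 2, and -0.09 without old 1) to 0.26, and Ifit1 from -0.40 to 0.35 (without young 2). Ifit1 was 0.36 with slide as a block, 0.023 and 0.16 at Leiden resolutions 0.5 and 1.2, and 0.11 in the tenth of spots. The cause was not tested. With 2 sections per age, slide and age partly joined, and the rarer members resting on few UMIs in small regions, changes near the spread between sections were not detectable.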
